A study of Oryza sativa Japonica Group with 8 samples.

Results

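PLA1, PLA2, PLA3 and NL1 are 4 rice genes that were picked by name. They are known to act on the timing of leaf formation in the shoot or on bract growth in the inflorescence. Their rows were taken from a table of 37859 genes by RAP identifier: Os10g0403000 for PLA1, Os01g0907900 for PLA2, Os03g0790600 for PLA3 and Os05g0578900 for NL1. All 4 rows were present. RNA was sequenced from 4 libraries of the osg1l2 single mutant and 4 libraries of the wild type control, both of the rice cultivar Nipponbare (Oryza sativa Japonica Group). Both genotypes were grown in long days of 16 h light and transferred to short days of 12 h light for 12 days. Meristems of the young inflorescence were then dissected, at stages that the labels call enriched in PBMs and ePBM/Ams. The labels do not say whether osg1l2 is 1 line or several, or how many plants went into a library, so p-values cover only how these libraries vary, which may be technical.

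In rice the shoot apical meristem makes leaves at regular intervals, and the time between successive leaves is the plastochron. The PLASTOCHRON genes lengthen that interval: loss of PLA1, PLA2 or PLA3 makes leaves form too quickly, and in the panicle it lets bracts, the leaves below branches, grow out when they would normally stay suppressed. PLA1 encodes a cytochrome P450 of the CYP78A group, PLA2 an RNA-binding protein related to MEI2, and PLA3 a protein related to glutamate carboxypeptidases. NL1, for NECK LEAF1, encodes a GATA zinc finger protein whose loss gives overgrown bracts and an enlarged leaf at the panicle neck. OsG1L2, the gene mutated here, belongs to the ALOG family of plant nuclear proteins, and the series title connects it with inflorescence branching. The comparison asked whether transcripts of the bract and leaf regulators differ between osg1l2 and wild type meristems.

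Levels are in FPKM, a measure of fragments that the authors scaled for the length of the gene and the size of the library. The summed FPKM of a library lay between 213940 and 221906 in osg1l2 and between 218558 and 231675 in wild type. On the second principal component wild type replicate 2 had a score of -28.4, far from the other 3 wild type scores of 4.87 to 10.8. The changes and spreads of the 4 genes are also given without it. So are the overlap of their ratios and the values of the PLA1 to NL1 ratio. Wild type replicate 2 also had the lowest value of the 4 wild type libraries in 42.9% of the 18254 genes that averaged 1 FPKM or more. Other names were not paired with identifiers in the files or the reference, so the targeted gene, the markers of the dissected tissue and other leaf initiation genes were not analysed here.

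None of the 4 genes passed the test of osg1l2 against wild type. Of the 18254 genes averaging 1 FPKM or more, 352, or 1.93%, passed (limma on log2(FPKM + 1), Benjamini-Hochberg adjusted p under 0.05). None of the 4 had an unadjusted limma p under 0.05 either, which 19.5% of those genes had, and 15.6% where all genes above 0 were fitted. In each of the 4 genes the osg1l2 and wild type values overlapped. This is the common outcome, as only 11.8% of the tested genes, and 9.3% of all genes above 0, had no overlap between the genotypes. The largest difference among the 4 was that of NL1, which averaged 6.46 FPKM in osg1l2 and 7.92 FPKM in wild type. The mean of osg1l2 relative to that of wild type was 0.923 for PLA1, 1.04 for PLA2, 0.925 for PLA3 and 0.816 for NL1.

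The order of levels was the same in all 8 libraries. PLA1 was the most abundant, followed by NL1, PLA2 and PLA3, and the ranges of neighbours in this order did not overlap. These levels are per length, on the scale of the FPKM table. The authors' deposited table gives the same order in both genotypes but other distances: the PLA1 value there is 429.1 times that of PLA3 in osg1l2 and 383.7 times in wild type. Over the 8 libraries PLA1 averaged 68.9 FPKM, rank 398 of 37859 genes. NL1 averaged 7.19 FPKM and was above 81.2% of all genes in the table. PLA2 averaged 2.87 FPKM and was above 65.3%. PLA3 averaged 0.559 FPKM, in the middle of the table with 46.9% of genes below it, a share that counts genes listed at 0. PLA1 alone carried between 84.9% and 89.0% of the summed FPKM of the 4 genes in osg1l2, and between 85.3% and 88.1% in wild type.

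PLA1, the cytochrome P450, stood at 59.1, 57.2, 68.4 and 79.8 FPKM in osg1l2 replicates 1 to 4, against 75.5, 63.4, 71.4 and 76.3 FPKM in wild type replicates 1 to 4. The osg1l2 libraries spanned a wider range than wild type: osg1l2 replicates 1 and 2 lay below every wild type library, and osg1l2 replicate 4 lay above every one. The means were 66.1 ± 10.3 FPKM in osg1l2 and 71.6 ± 5.89 FPKM in wild type (SD, n = 4 each). On the log2(FPKM + 1) scale the change of osg1l2 relative to wild type was -0.12 (standard error 0.11, limma adjusted p = 0.56). Its 95% interval ran from -0.36 to 0.12, or from 0.777 to 1.08 as a fold. Permuting the 8 libraries exactly, two-sided, gave p = 0.37, where the smallest possible value is 0.029. The log2 change ran from -0.22 without osg1l2 replicate 4 (limma unadjusted p 0.038, adjusted p = 0.23) to -0.06 without osg1l2 replicate 2 (limma adjusted p = 0.79). With all libraries 19.5% of tested genes had an unadjusted limma p under 0.05. The share without osg1l2 replicate 4, the highest osg1l2 library, is not given here. Without osg1l2 replicate 1 the log2 change was -0.07, and without wild type replicate 2 it was -0.18 (limma adjusted p = 0.34). Rescaling the libraries brought it to -0.08 by median of ratios and -0.04 by quantiles.

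NL1, the GATA zinc finger gene, stood at 5.03, 5.96, 8.07 and 6.78 FPKM in osg1l2 replicates 1 to 4, against 8.33, 5.92, 8.13 and 9.29 FPKM in wild type replicates 1 to 4. Of the osg1l2 libraries, 3 lay below the wild type mean, and 1 lay below the lowest wild type library, which was replicate 2. The means were 6.46 ± 1.29 FPKM in osg1l2 and 7.92 ± 1.42 FPKM in wild type (SD, n = 4 each). The log2 change was -0.26, its standard error 0.15 and its 95% interval from -0.59 to 0.07 (limma adjusted p = 0.36). The exact two-sided permutation test gave p = 0.17.

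The size of the NL1 difference moved with single libraries. Without wild type replicate 2 the wild type mean was 8.58 FPKM, and all 4 osg1l2 values lay below the lowest wild type value, 8.13 FPKM, the nearest of them at 8.07 FPKM. Such a lack of overlap was found in 23.6% of the genes tested without that library. The log2 change became -0.38, with an interval from -0.66 to -0.09. Its unadjusted p was 0.017 in limma, and its adjusted p was 0.12, above the threshold, in a fit in which 4.53% of genes passed. The exact two-sided permutation p was 0.057, the smallest possible value with 4 against 3 libraries. For fits without a library or with quality weights, the share of genes with an unadjusted p under 0.05 is not given here. In the main fit it was 19.5%, and 15.6% where all genes above 0 were fitted. Without osg1l2 replicate 3, the highest osg1l2 library, the log2 change was -0.36 (limma unadjusted p 0.034, adjusted p = 0.26). Without osg1l2 replicate 1, the lowest, it was smaller in size, -0.16 (limma adjusted p = 0.67), and without wild type replicate 4, the highest wild type library, it was -0.18 (limma adjusted p = 0.60). Among the other settings, library quality weights gave -0.32 (limma unadjusted p 0.033, adjusted p = 0.15), and median-of-ratios rescaling gave -0.22 with all libraries.

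**Figure D1:**
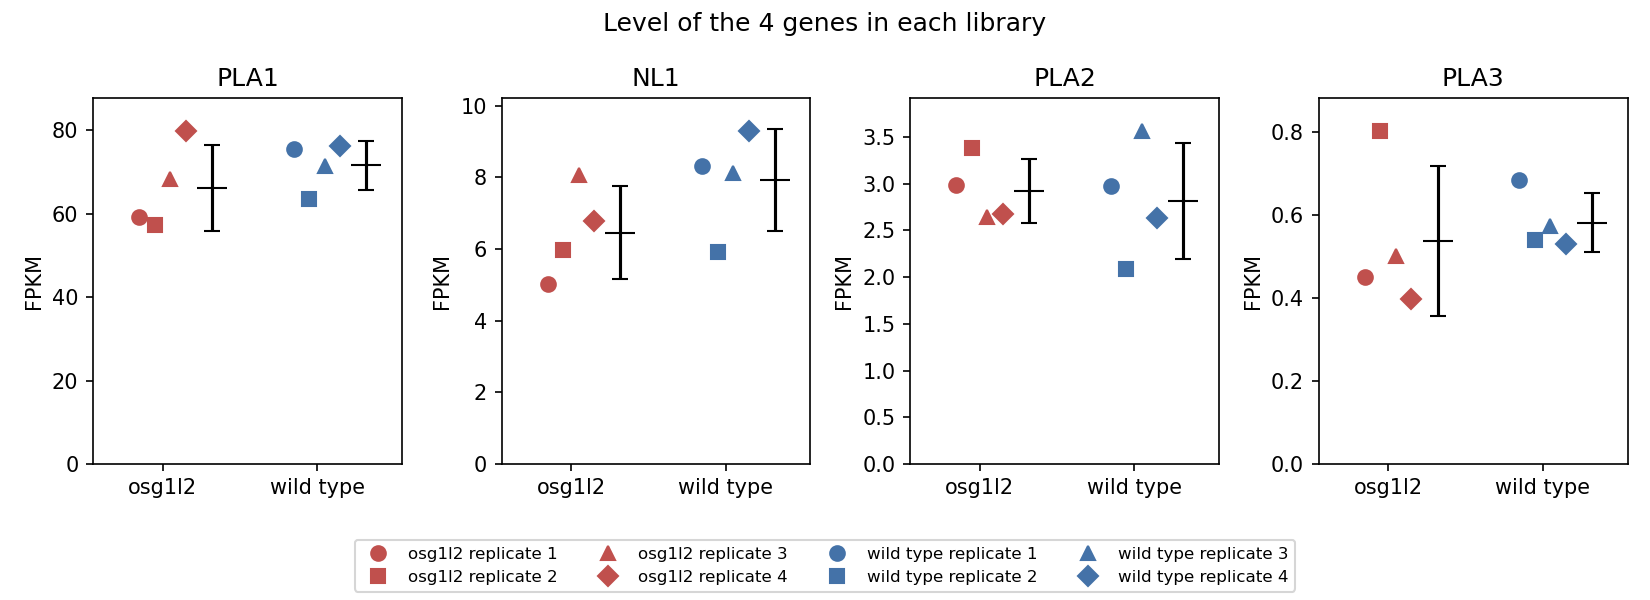
FPKM of PLA1, NL1, PLA2 and PLA3 in each library (one point per library, the marker shape gives the replicate number), osg1l2 on the left and wild type on the right of each panel, with the mean and SD of 4 libraries as a black bar. Every panel starts at 0 and has its own scale; the genotypes overlap in all 4 panels, and wild type replicate 2 is the lowest wild type library for PLA1, NL1 and PLA2.

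PLA2, the MEI2-like gene, stood at 2.98, 3.39, 2.64 and 2.68 FPKM in osg1l2 replicates 1 to 4, against 2.97, 2.09, 3.56 and 2.64 FPKM in wild type replicates 1 to 4. All 4 osg1l2 libraries lay within the wild type range, whose ends were replicates 2 and 3. The means were 2.92 ± 0.346 FPKM in osg1l2 and 2.81 ± 0.618 FPKM in wild type (SD, n = 4 each). The log2 change was 0.05 with a 95% interval from -0.21 to 0.31 (limma adjusted p = 0.85), and the exact two-sided permutation p was 0.71. Without wild type replicate 2 the log2 change turned to -0.05 (limma adjusted p = 0.80). It was also just below 0 without osg1l2 replicate 2 (-0.0051) and with library quality weights (-0.0065), so PLA2 had no settled direction.

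PLA3, the carboxypeptidase-like gene, stood at 0.450, 0.801, 0.502 and 0.397 FPKM in osg1l2 replicates 1 to 4, against 0.683, 0.539, 0.573 and 0.531 FPKM in wild type replicates 1 to 4. The osg1l2 values lay on both sides of the wild type range: replicates 1, 3 and 4 below all of it and replicate 2 above all of it. The means were 0.537 ± 0.181 FPKM in osg1l2 and 0.581 ± 0.070 FPKM in wild type (SD, n = 4 each). PLA3 was under the limit of 1 FPKM that the other genes met, so its test comes from a fit of all 32542 genes with any value above 0, of which 1.32% passed. There its log2 change was -0.05 with an interval from -0.24 to 0.15 (limma adjusted p = 0.83), and the exact two-sided permutation p was 0.60. The log2 change ran from -0.13 without osg1l2 replicate 2 (limma unadjusted p 0.030, adjusted p = 0.28) to -0.003 without osg1l2 replicate 4 (limma unadjusted p 0.97). With all libraries 15.6% of genes above 0 had an unadjusted limma p under 0.05. The share without osg1l2 replicate 2, the highest osg1l2 library, is not given here. The log2 change was -0.02 without osg1l2 replicate 1 or without wild type replicate 1. Leaving out wild type replicate 2 gave -0.06 (limma adjusted p = 0.78). At such a level the added 1 FPKM shrinks the fold: with 0.1 added in its place the log2 change was -0.13, with an interval from -0.60 to 0.34 (limma adjusted p = 0.80).

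**Figure D2:**
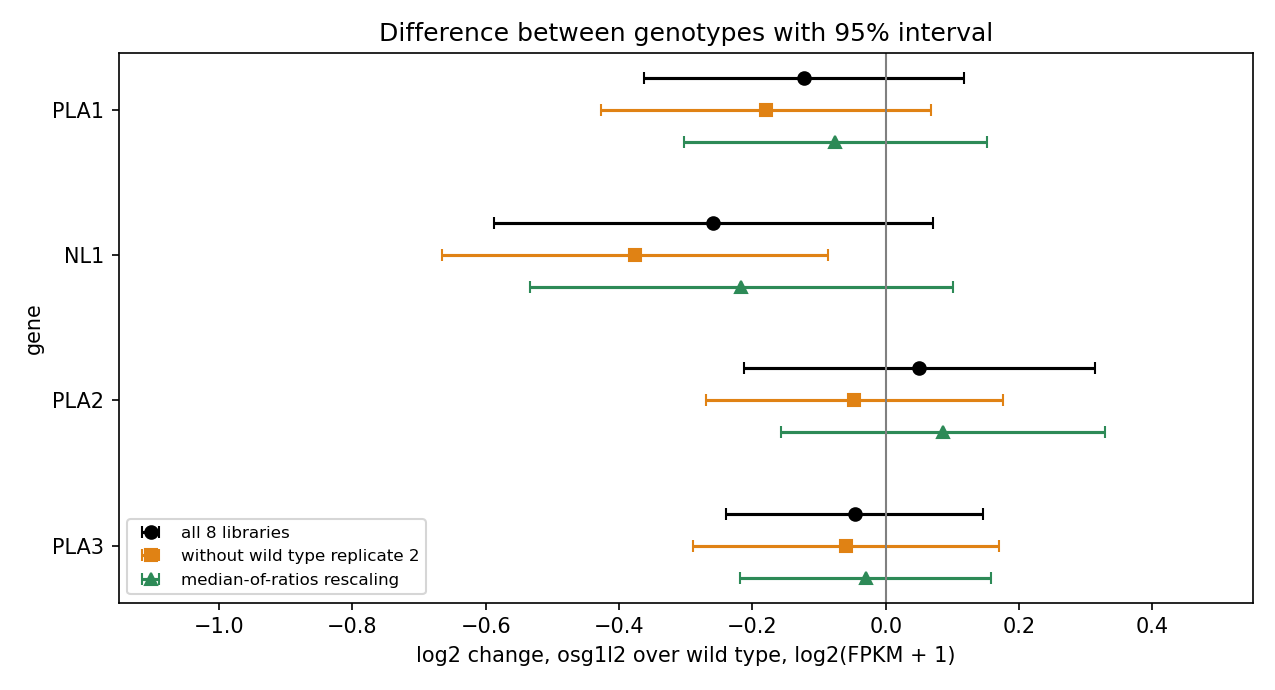
Log2 change of each gene, osg1l2 over wild type, in log2(FPKM + 1), with its 95% interval from limma, for all 8 libraries, without wild type replicate 2 and after median-of-ratios rescaling. With all 8 libraries every interval includes 0. The NL1 interval without wild type replicate 2 runs from -0.66 to -0.09, but is not adjusted for the number of genes. In that fit NL1 did not pass (limma adjusted p = 0.12), while 4.53% of genes did.

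The tested genes as a whole had a median log2 change of -0.04, and 61.7% of them had a value below 0. PLA1 and NL1 lay below that median and PLA2 above it. Among the 200 tested genes nearest to it in level, NL1 had a lower log2 change than all but 4.5%, and the absolute size of its change exceeded that of 93.5% of them. For PLA1 the change was of ordinary size, larger than that of 49.0% of genes of like level. PLA2 exceeded 30.5% of its like-level genes in absolute change and PLA3 24.5%. Without wild type replicate 2 these shares were 98.0% for NL1, 64.0% for PLA1, 25.5% for PLA2 and 34.0% for PLA3.

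**Figure D3:**
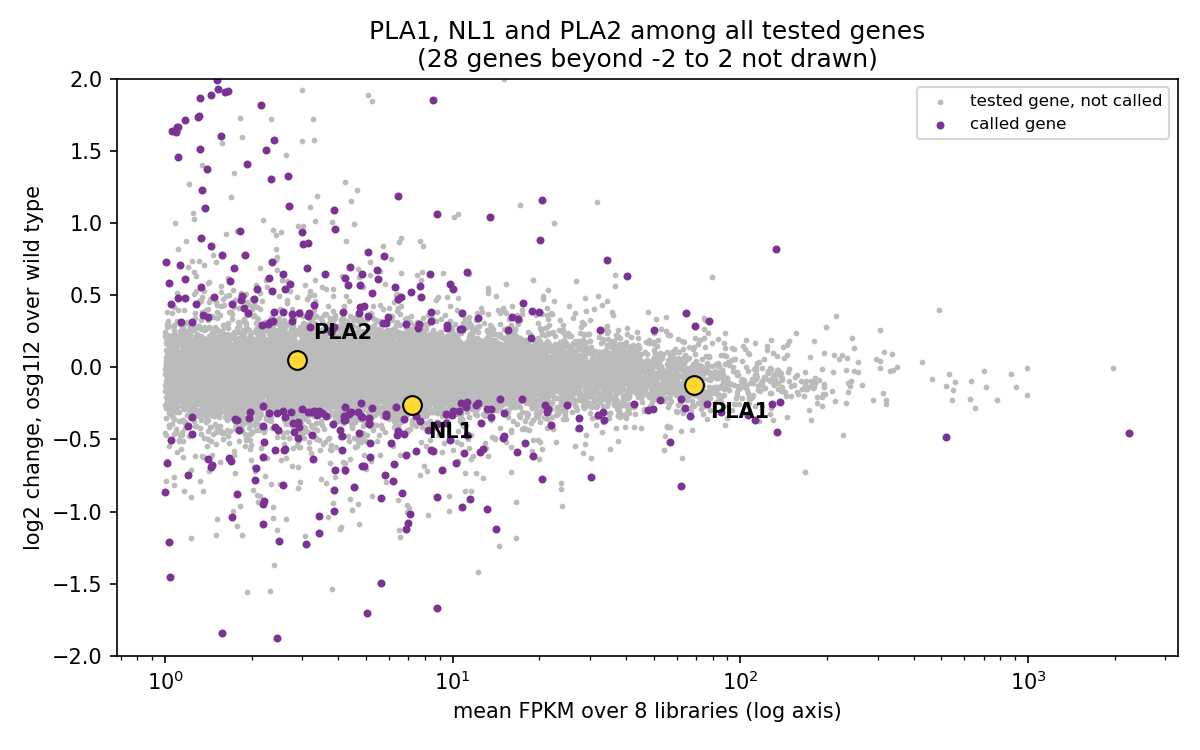
Log2 change, osg1l2 over wild type, against mean FPKM over 8 libraries (log axis) for the 18254 tested genes, with the 352 called genes in purple and PLA1, NL1 and PLA2 in yellow. The 28 genes beyond a log2 change of 2 in size are not drawn; PLA1, at -0.12, and PLA2, at 0.05, lie inside the bulk of uncalled genes, and NL1, at -0.26, lies toward its lower edge.

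Replicates of 1 genotype varied more for PLA1, NL1 and PLA2 than for most genes of their level. The SD within genotypes on the log2(FPKM + 1) scale was 0.25 for NL1, larger than in 94.0% of its 200 like-level genes, whose median was 0.10. For PLA1 it was 0.17, larger than in 85.5% of its like-level genes. PLA2 had 0.19, larger than 83.0% of its own. PLA3 had 0.12, close to the median of 0.12 among genes of its level. Without wild type replicate 2 the SD exceeded that of 95.5% of like-level genes for NL1, 89.5% for PLA1, 68.5% for PLA2 and 60.5% for PLA3. As the libraries come from bulk tissue, fewer cells of a type and less RNA per cell cannot be told apart in any of these values.

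Ratios between the genes within a library do not change when each library is multiplied by a factor of its own, though quantile normalization does change them. All 6 ratios overlapped between the genotypes, with all libraries and without wild type replicate 2. PLA1 was between 8.47 and 11.8 times NL1 in osg1l2 and between 8.22 and 10.7 times NL1 in wild type. Without wild type replicate 2 the wild type range was 8.22 to 9.06, and the log2 difference between genotypes was 0.25 instead of 0.17. NL1 was 1.68, 1.76, 3.06 and 2.53 times PLA2 in osg1l2 replicates 1 to 4, against 2.80, 2.84, 2.28 and 3.52 times in wild type replicates 1 to 4. Of the 6 ratios this one had the largest difference between genotypes, -0.37 on the log2 scale, with SDs of 0.42 in osg1l2 and 0.26 in wild type, and only osg1l2 replicates 1 and 2 lay below all wild type libraries. The ratio of PLA1 to PLA3 ran from 71.4 to 200.9 in osg1l2 and from 110.5 to 143.9 in wild type, so its range was wider in the mutant libraries on both sides.

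**Figure D4:**
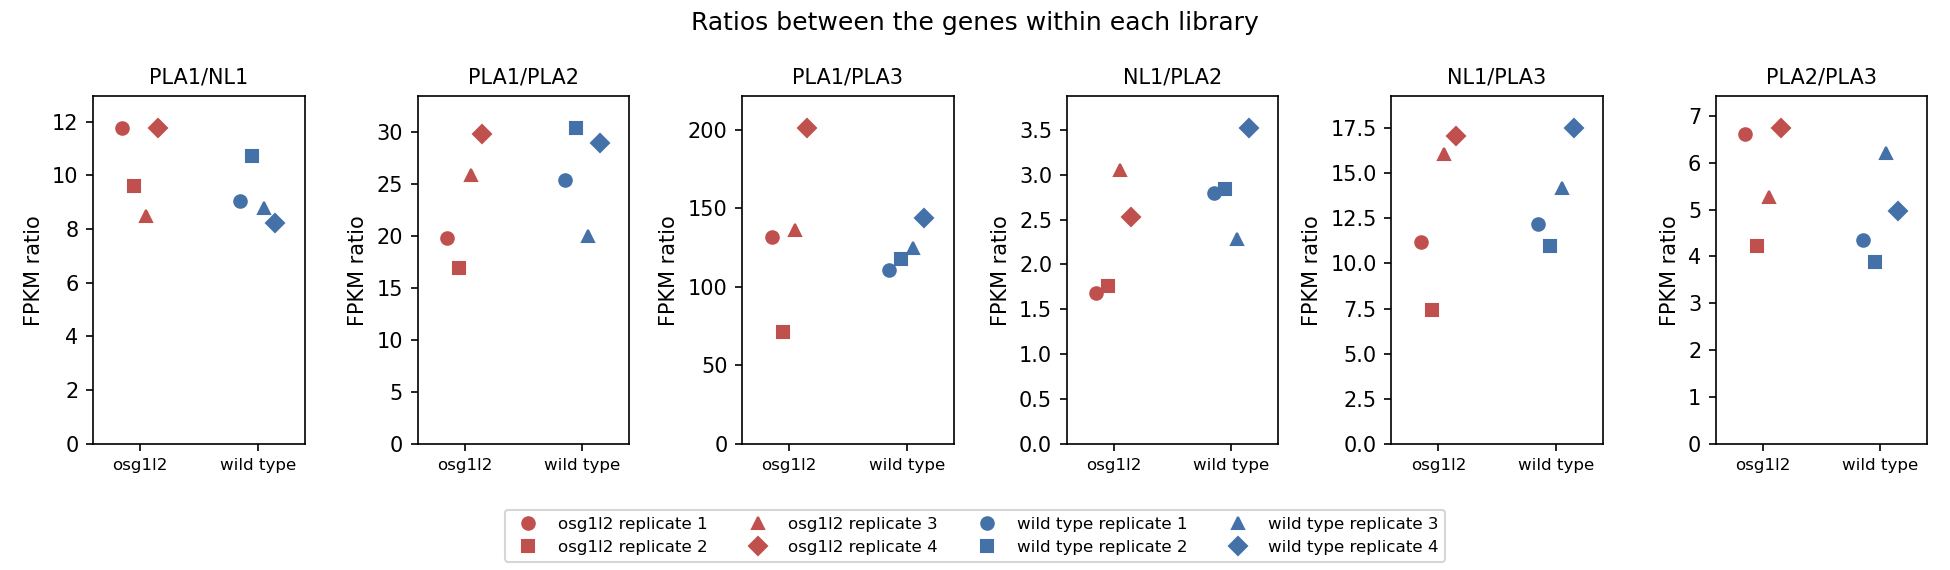
Ratio of FPKM between each pair of the 4 genes within each library, with osg1l2 on the left and wild type on the right of each panel and the replicate number given by the marker shape. Each axis starts at 0 and has its own scale; in all 6 panels the genotypes overlap, and the ratio of PLA1 to PLA3 spans 71.4 to 200.9 in osg1l2 and 110.5 to 143.9 in wild type.

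The second deposited table, the authors' comparison of the genotypes, also called none of the 4 genes. The authors' deposited table gives PLA1 a value of 306.3 in osg1l2 and 281.5 in wild type, a log2 fold change of 0.12 with q = 0.88, in the direction opposite to that of the mean FPKM. Of the 18181 genes that could be compared, 11.3% had opposite signs in the 2 tables. For NL1 the authors' deposited table gives 24.1 in osg1l2 and 27.5 in wild type, a log2 fold change of -0.19 with q = 0.42. PLA2 has 7.99 in osg1l2 and 6.97 in wild type in the authors' deposited table, a log2 fold change of 0.20 with q = 0.42. PLA3 has 0.714 in osg1l2 and 0.734 in wild type in the authors' deposited table, with q = 1.0. None of the 4 genes was under q = 0.05, which 2.02% of the entries in the authors' deposited table were.

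The 2 deposited tables were on different scales, and for PLA1 and NL1 by more than for nearly all genes. In the authors' deposited table the PLA1 value was 4.63 times the mean FPKM in osg1l2 and 3.93 times in wild type. Genes in general had a median of 1.65 times in osg1l2 and 1.62 times in wild type, and 99.4% of genes had a lower ratio than PLA1 in osg1l2 and 99.3% in wild type. The NL1 ratio was 3.73 in osg1l2 and 3.48 in wild type, above that of 97.2% of genes in osg1l2 and 97.8% in wild type. PLA2 had ratios of 2.74 in osg1l2 and 2.48 in wild type. PLA3 was at the other end, with 1.33 in osg1l2 and 1.26 in wild type, above only 5.46% of genes in osg1l2 and 1.79% in wild type. The cause of this difference in scale was not tested.

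The 4 genes lie on different chromosomes by their identifiers: 10 for PLA1, 1 for PLA2, 3 for PLA3 and 5 for NL1. RAP identifiers run along a chromosome, so the 5 tested genes on either side of each were read as its neighbours. None of the 10 neighbours of PLA1, PLA3 or NL1 passed the test. Of the 10 neighbours of PLA2, only Os01g0906425 passed, with a log2 change of -1.03 (limma adjusted p = 0.0018). Of all tested genes 1.93% passed, and beside that share such counts say nothing particular about these 4 positions. The neighbours of NL1 had log2 changes from -0.25 to 0.10, those of PLA1 from -0.62 to 0.06 and those of PLA3 from -0.17 to 0.29.

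For each gene, the other gene with the most similar pattern over the 8 libraries was found by Pearson correlation of log2(FPKM + 1). Each value is the highest among the 18254 genes and is given as a description. Genes with r over 0.9 numbered 30 for PLA1, 66 for PLA2, 16 for PLA3 and 66 for NL1. The closest to NL1 was Os10g0351500 (r = 0.99, rho = 0.98), which averaged 1.99 FPKM in osg1l2 and 2.54 FPKM in wild type. Os11g0693900 was closest to PLA1 (r = 0.97, rho = 0.93), with 14.1 FPKM in osg1l2 and 15.0 FPKM in wild type. The gene closest to PLA2 was Os03g0689300 (r = 0.97, rho = 1.0), and that closest to PLA3 was Os05g0565701 (r = 0.96, rho = 0.86). None of these 4 passed the test of osg1l2 against wild type (limma adjusted p from 0.31 to 0.93), which 1.93% of the 18254 genes passed. Their choice for likeness to genes that did not pass made this likely, so it is no separate result. None of them is 1 of the 4 genes described here.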

How the data were processed

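The authors deposited FPKM values for 8 libraries. The submitters' processing notes name the genome build IRGSP-1.0. Not given in the sources used here: aligner, counting program, strandedness and depth, so reads from an antisense partner of a gene could not be told apart. The authors' deposited comparison holds 1 value per genotype, treated here as a score because the file header names no unit, and beside these a q-value and a log2 fold change. Per the labels, RNA was column-purified and libraries were made with an Illumina preparation kit. Identifiers were paired with the names PLA1, PLA2, PLA3 and NL1 when the genes were chosen. The reference gene table (ASM3414082v1) lists each of these 4 names once, on the chromosome that the identifier carries, but contains only 1 of the 37859 identifiers and none of the 4. The lists of leaf initiation genes and tissue markers therefore matched no row.

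Genes averaging 1 FPKM or more were compared on log2(FPKM + 1) with limma 3.58.1 in R 4.3.3 (intensity trend, two-sided, Benjamini-Hochberg over 18254 genes). PLA3 was read from a fit of 32542 genes. The fit was tested on simulated data, with log2 changes larger than those of the 4 genes. That test does not show how well differences as small as theirs are found. Alternatives were pseudocounts of 0.1 and 0.5, other filters, 2 rescalings, a replicate block, a robust variance prior, library quality weights and fits without each library. Named genes were the 4 members and the gene most alike each; Os01g0906425 was named after its value was seen. The members and lists were chosen with earlier results of these data known. Summaries and figures used Python 3.11.15, pandas 2.3.3, scipy 1.17.1 and matplotlib 3.10.9.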

Additional observations from a re-analysis of the deposited data

Results flagged for a closer look

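Wild type replicate 2 lay at -28.4 on the second principal component of log2(FPKM + 1), against 4.87 to 10.8 for the other wild type libraries. Its gap to the nearest of them was 0.849 of the range of the 4, above Dixon's 95% critical value for 4 values. It was the 1 group so marked among 24 groups of 4 values, where chance marks about 1 in 20, so such a mark is not unusual. The component was computed from these same libraries, so the mark describes wild type replicate 2 and does not test it. In this library PLA1, NL1 and PLA2 each had their lowest wild type value, but none of the 8 groups of FPKM values of the 4 genes passed the critical value. The nearest was PLA3 in osg1l2, where replicate 2, at 0.801 FPKM, had a gap of 0.741 of the range.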

How the results depend on the processing

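None of the 4 genes passed an adjusted p of 0.05 in limma under any alternative that tested it. The lowest adjusted p in limma was 0.23 for PLA1, 0.54 for PLA2, 0.28 for PLA3 and 0.12 for NL1, each without 1 library. PLA1, PLA3 and NL1 had log2 changes below 0 in all of these fits, but the authors' deposited table gives PLA1 0.12. PLA2 turned to -0.047 without wild type replicate 2, to -0.0051 without osg1l2 replicate 2, to -0.0065 with library quality weights and to -0.00083 without wild type replicate 2 after median-of-ratios rescaling, an alternative chosen after seeing the data. Leaving out each library gave -0.22 to -0.06 for PLA1, -0.05 to 0.14 for PLA2, -0.13 to -0.003 for PLA3 and -0.38 to -0.16 for NL1. With the replicate block the log2 changes were the same by construction and the adjusted p in limma was 0.51 for PLA1 and 0.36 for NL1. The count of 352 called genes became 152 with the replicate block, 153 at 5 FPKM, 1097 with library quality weights, 760 in the authors' deposited table, 609 without wild type replicate 2 after rescaling, and 155 to 826 without each library. The cause was not tested. Replicate numbers are not stated to pair libraries. Libraries sharing number 1, 2, 3 or 4 had deviations from their genotype's mean correlated at 0.069, -0.017, -0.091 or -0.12. Only osg1l2 replicate 1 was most correlated with the library of its own number. Such correlations cannot decide whether the libraries were paired. Median-of-ratios rescaling moved the split of called genes to 220 higher and 135 lower in osg1l2, against 164 and 188. The order of levels was the same in both genotypes under both rescalings and without each library. A filter at 5 FPKM leaves out PLA2 and PLA3, and the lists of other genes gave no value. What depth limits is not known without counts.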
